A study of Homo sapiens with 22 samples.

Results

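The 3′ ends of protein-coding genes and the sequence just past them were followed in a map of piggyBac insertions made in K562 cells, a human chronic myelogenous leukaemia line. Members were the 3′ ends of protein-coding genes of at least 10 kb on chromosomes 1 to 22 (GENCODE 44 annotation, hg38) with no other annotated gene within 10 kb downstream. Of 14325 genes of that length, 4483 (31.3%) were members, out of 19111 protein-coding genes on these chromosomes. Their median length was 58055 bp. In 407 of them another gene overlapped the last 5 kb, and in 365 the 10 kb flank overlapped that of another member. The rule uses annotation only. All cells received a barcoded PBase self-reporting transposon donor with a puromycin resistance gene and were selected with puromycin, and the groups differed in the helper plasmid that supplied the transposase. Of 22 libraries, 10 were made with hyPBase, a hyperactive piggyBac transposase (WTHYPB in the sample names), and 10 with a helper the labels name hyPBase-centrip, whose construction is not given in the sources used here. Cells were transfected by electroporation. Several transfections were plated into the same dish and RNA was isolated from sets of them, and which ones were joined is not given. The p-values therefore measure only the spread between libraries, and all libraries share the same genomic sites.

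The piggyBac transposase inserts its transposon at the sequence TTAA, which reads the same on both strands, so that these bases alone give no orientation. Shares were not adjusted for the sequence around the TTAA. A self-reporting transposon carries a promoter whose transcript runs out of the transposon into the neighbouring genome, and insertions are read from that transcript. At the 3′ end of a gene, RNA polymerase II transcribes a polyadenylation signal, the transcript is cut shortly after it and a poly(A) tail is added. The polymerase itself continues into the downstream flank before it leaves the DNA. Each insertion was recorded with an orientation, and an insertion was called same-strand when that orientation matched the strand of the gene. The same-strand share is the percentage of insertions with that orientation. A share of 50% means no excess on either side, and a share below it is an opposite-strand excess.

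Among the most used TTAA sites of the downstream flanks, 5 are shown because they show which positions carried the highest counts (1 site per gene). Each is printed 5′ to 3′ on the strand of its gene with 28 bases on either side, from hg38, and the capitals mark the TTAA.
PDIK1L: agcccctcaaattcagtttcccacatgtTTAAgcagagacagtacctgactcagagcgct
ADIPOQ: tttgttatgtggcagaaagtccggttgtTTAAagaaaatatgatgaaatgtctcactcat
NXPH1: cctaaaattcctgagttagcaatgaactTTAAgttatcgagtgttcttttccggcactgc
CAV2: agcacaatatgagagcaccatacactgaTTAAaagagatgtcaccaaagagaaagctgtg
SOCS2: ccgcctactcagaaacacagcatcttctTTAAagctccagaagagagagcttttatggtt
All 5 were intergenic in the annotation. The site past PDIK1L, a kinase gene, lay at chr1:26127373-26127376, 1819 bp past the end, and held 825 insertions, 415 same-strand and 410 opposite. The site past ADIPOQ, which encodes the fat cell hormone adiponectin, lay at chr3:186860985-186860988, 2523 bp past the end, and held 401 same-strand and 418 opposite insertions. It carried 31.8% of all insertions in that flank. NXPH1 encodes a secreted neurexin ligand, CAV2 a caveolin and SOCS2 a suppressor of cytokine signalling, and their sites at chr7:8762867-8762870, chr7:116511591-116511594 and chr12:93593326-93593329 held 621, 618 and 578 insertions. All 5 were hit in each of the 20 libraries, the PDIK1L site between 40 and 42 times in every library. Shares over the 5 sites ran from 42.2% at NXPH1 (262 same-strand and 359 opposite) to 55.9% at SOCS2 (323 and 255). At the PDIK1L and ADIPOQ sites both orientations were near the highest count seen at 1 site and orientation, so their evenness carries no information on orientation. No position, orientation and barcode occurred more than once in a library, and libraries held 26 barcodes each. The highest count at 1 site and orientation in these flanks was 21 or 22 in each library, so no site added more than that to either orientation of a library.

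A further 4 sites, the most used within the last 50 bp of a gene, are printed with 13 bases on either side, because they show how insertions fell at the very end of a gene.
PDIK1L: atgacttttttttTTAAataaagtgagttt
AKR1E2: gcttttttcttccTTAAaaatctgaatttt
POLR3GL: tggttttatacttTTAAataaagtgttttt
ZNF169: gcctcgtttaaccTTAAtaaccttcctaaa
At PDIK1L (chr1:26125513-26125516) and POLR3GL (chr1:145978825-145978828) the TTAA overlaps an AATAAA, the canonical polyadenylation signal. All 4 lay inside the annotated gene, 5 to 41 bp before its end. At POLR3GL, a gene for an RNA polymerase III subunit, 3 insertions were same-strand and 214 opposite, a share of 1.38%. At AKR1E2 (chr10:4848056-4848059), an aldo-keto reductase gene, 3 were same-strand and 217 opposite. At PDIK1L the counts were 114 and 184, and at ZNF169 (chr9:94301801-94301804), a zinc finger gene, the majority was the other way, with 136 same-strand and 49 opposite. Sites a few bases from a gene end could thus be used almost in 1 orientation only or in both.

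Over the flanks 0 to +10 kb, 145446 of 243643 TTAA sites (59.7%) were hit at least once, with a median of 1 and a mean of 4.14 insertions per site over the 20 libraries. The most hit 1% of sites held 26.7% of the insertions. The bases next to the TTAA went with its use. Sites reading TTTAAA held 6.85 insertions each, CTTAAA 5.30, ATTAAA 4.43 and GTTAAC 0.34 (a context and its reverse complement counted together). These counts are pooled over the libraries and carry no test.

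In all, 1591608 insertions fell between 5 kb before and 10 kb past the 4483 ends, at 395624 TTAA sites. Libraries held 1509672 to 3596762 insertions in total, at 2.23 to 5.39 reads per insertion, and 45904 to 110746 insertions each in these windows. Only 13 members had no insertion there. Over all autosomal TTAA sites the mean was 2.82 insertions per site.

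The first question was where the opposite-strand excess of gene bodies ends. Inside the gene bodies, from the start to 5 kb before the end, the same-strand share was 33.5% ± 0.78 (SD, n = 20 libraries). Between 5.0 and 4.5 kb before the end the hyPBase libraries gave 30.0% ± 1.60 and the hyPBase-centrip libraries 31.1% ± 0.94. The mean over both helpers then climbed in each step up to 0.5 kb before the end. With hyPBase-centrip alone the share was 32.9% between 4.5 and 4.0 kb and 32.5% in the next step. The mean over both helpers reached 44.9% between 2.0 and 1.5 kb before the end, 50.2% between 1.5 and 1.0 kb and 55.3% between 1.0 and 0.5 kb. In the last 0.5 kb the mean was 55.0% ± 1.76 for hyPBase and 52.5% ± 2.55 for hyPBase-centrip. From 1.0 to 0.5 kb before the end both helpers thus had a same-strand excess, at 54.6% and 56.1% (exact sign-flip permutation test over 10 libraries, adjusted p = 0.00249 for each). In the last 0.5 kb both passed with all insertions (adjusted p = 0.00249 and 0.0247 in the same exact test). With at least 2 reads per insertion, the hyPBase-centrip mean fell within that step from 56.9% at 500 to 400 bp before the end to 37.4% in the last 100 bp.

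**Figure D1:**
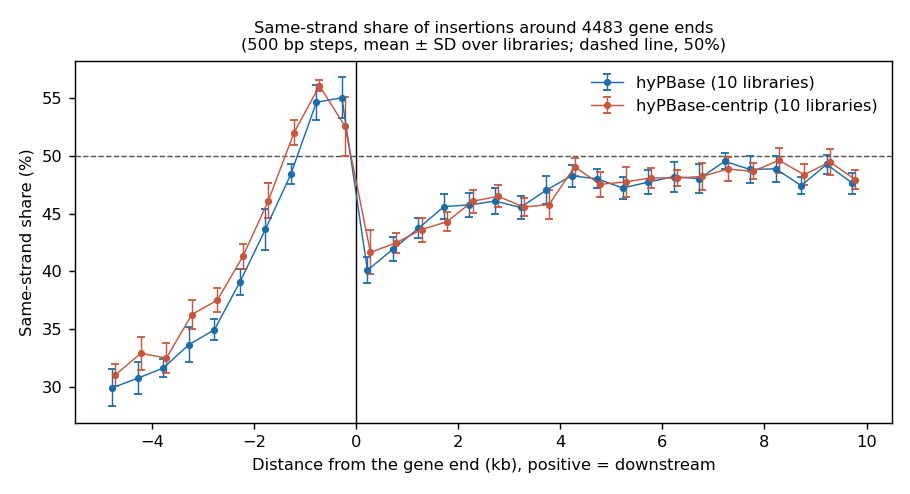
Same-strand share (%) against distance from the gene end (kb), in 500 bp steps, as mean and SD over 10 libraries per helper; the dashed line marks 50%. The share rises from about 30% at -5 kb to 55.3% (mean of both helpers, -1.0 to -0.5 kb), falls to 40.9% just past the end, and is 47.8% in the last step before +10 kb.

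Just past the end the share was again below 50%. It was 40.9% in the first 0.5 kb, 42.2% in the next, 45.0% between 1.5 and 2.0 kb and 46.4% between 3.5 and 4.0 kb. From there its course was uneven, with 48.7% between 4.0 and 4.5 kb and 47.5% between 5.0 and 5.5 kb. It was 47.9% between 5.5 and 6.0 kb and 49.2% between 7.0 and 7.5 kb. Of the 20 steps past the end, 17 were below 50% with an adjusted p under 0.05 with both helpers, all insertions counted. The first step that did not pass in both began 7.0 kb past the end, and the last step, from 9.5 to 10.0 kb, was again below 50% (47.8%). No step within 10 kb marked an end of the excess. With at least 5 reads per insertion, 10 steps passed in place of 17. These shares pool insertions over members, so a called step does not mean that most members had the excess. Of members with at least 10 insertions in a step, 64.1% had more opposite-strand insertions in the first 0.5 kb. In the called steps from 4.0 to 4.5 kb and from 5.5 to 6.0 kb, 52.7% and 51.2% did.

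The share was compared over wider windows, with 1 value per library. In the last 5 kb of the gene it ranged over the hyPBase libraries from 42.9% to 43.8% (median 43.3%) and over the hyPBase-centrip libraries from 44.1% to 45.2% (median 44.4%), so that the helpers did not overlap. From 0 to +2 kb the ranges were 41.9% to 43.7% and 42.2% to 44.4%, and they overlapped. From +2 to +5 kb the share was 46.7% ± 0.38 and from +5 to +10 kb 48.4% ± 0.30 (SD, n = 20). All 20 libraries were below 50% in each window, and the adjusted p was 0.00195 for each helper, the smallest that 10 libraries allow. The window from +5 to +10 kb stood 4.45 ± 0.66 percentage points above the last 5 kb, in 20 of 20 libraries (exact sign-flip permutation p = 0.00195 for each helper).

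The insertion density per TTAA site, relative to all autosomal sites, shows which orientation moved. Opposite-strand density changed less, at 0.71 in the first step from -5 kb, 0.85 in the last 0.5 kb, 0.875 in the first 0.5 kb past it and 0.79 at the far edge. Same-strand density was 0.31 at -5 kb, rose to 1.03 between 1.0 and 0.5 kb before the end, was 0.60 in the first 0.5 kb past it and 0.72 at +10 kb. From the step before -0.5 kb to the first past the end, same-strand density thus changed by more than opposite-strand density.

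**Figure D2:**
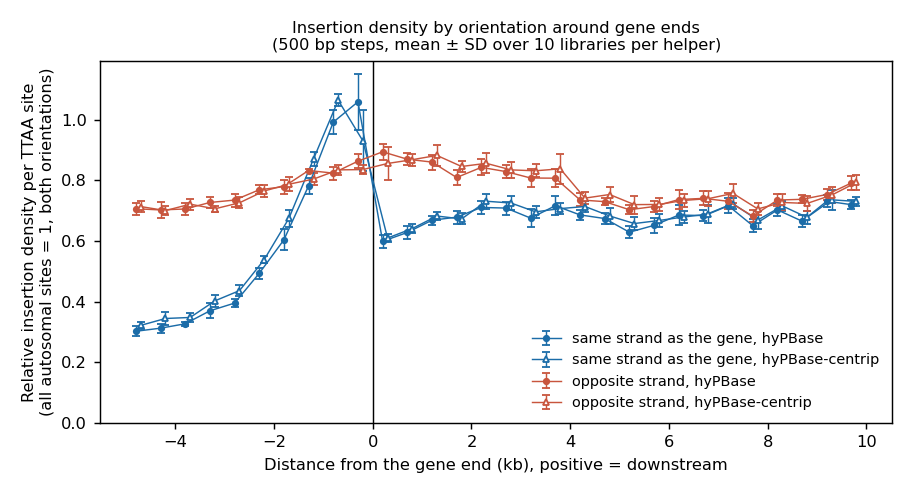
Relative insertion density per TTAA site (all autosomal sites, both orientations, equal 1) against distance from the gene end (kb), split by orientation and helper, as mean and SD over 10 libraries. Same-strand density rises from 0.31 to 1.03 before the end and is 0.60 just past it, while opposite-strand density stays between 0.69 and 0.875 (means of both helpers).

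In both orientations together, density was 1.37 ± 0.015 times the autosomal mean in the last 5 kb, 1.51 ± 0.013 from 0 to +2 kb, 1.5 ± 0.033 from +2 to +5 kb and 1.42 ± 0.024 from +5 to +10 kb (SD, n = 20). The gene bodies stood at 1.02 ± 0.0097, pooled over all their TTAA sites, so that long genes weigh more there than in the windows at the ends. In the last 5 kb density was 1.53 ± 0.022 for members of 10 to 30 kb and 1.17 ± 0.020 for those of at least 100 kb. The part of gene length in the contrast between bodies and ends was not tested. All 20 libraries were above 1 in each of the 4 windows at the ends (adjusted exact permutation p = 0.00195 for each helper). The densest 500 bp step was the one from 1.0 to 0.5 kb before the end, at 1.86.

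The last 5 kb of a gene holds stretches of very different kinds, and the share was next compared between the last exon and the introns of the canonical transcript (GENCODE tag). This split, like the other fine measures that follow, was chosen after the profile had been seen. It used the 3892 members whose canonical transcript ends within 50 bp of the gene end and has at least 2 exons, with a median last exon of 2088.5 bp. In the last exon the share was 52.4% ± 0.94, and in introns of the same 5 kb it was 24.9% ± 0.76 (SD, n = 20 libraries). Over the hyPBase libraries the last exon ran from 50.9% to 52.3% and the introns from 23.5% to 25.3%. Over the hyPBase-centrip libraries the ranges were 51.9% to 54.0% and 24.2% to 26.4%. The groups did not come near each other, and the difference of 27.6 ± 0.84 percentage points was present in 20 of 20 libraries (exact sign-flip permutation test over 10 libraries, adjusted p = 0.00326 for each helper). Same-strand density per TTAA site was 0.92 in last exons against 0.24 in introns, and opposite-strand density 0.84 against 0.71.

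The difference was also present at matched distances. Last-exon sites far from the end come only from members with long last exons, so the classes there lie largely in different members. These members were not matched, and no comparison within genes was made. At 1.5 to 1.0 kb before the end the last exon was at 54.7% ± 2.44 and introns at 32.8% ± 2.21. At 3.0 to 2.5 kb they were at 46.9% ± 2.35 and 21.7% ± 1.37, and at 5.0 to 4.5 kb at 44.2% ± 2.78 and 22.1% ± 1.19. Leaving out the last 1 kb, the last exon stood 26.0 ± 1.63 percentage points above introns, again in 20 of 20 libraries. This difference was 24.7 ± 0.94 with hyPBase and 27.3 ± 0.86 with hyPBase-centrip, and the helpers did not overlap (two-sided permutation test, adjusted p = 0.0003 over 10 contrasts). Other exons held 3497 insertions in the window, with a share of 32.4% ± 3.33. In the last 0.5 kb itself, introns held only 1537 insertions, at 55.9% ± 4.47.

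**Figure D3:**
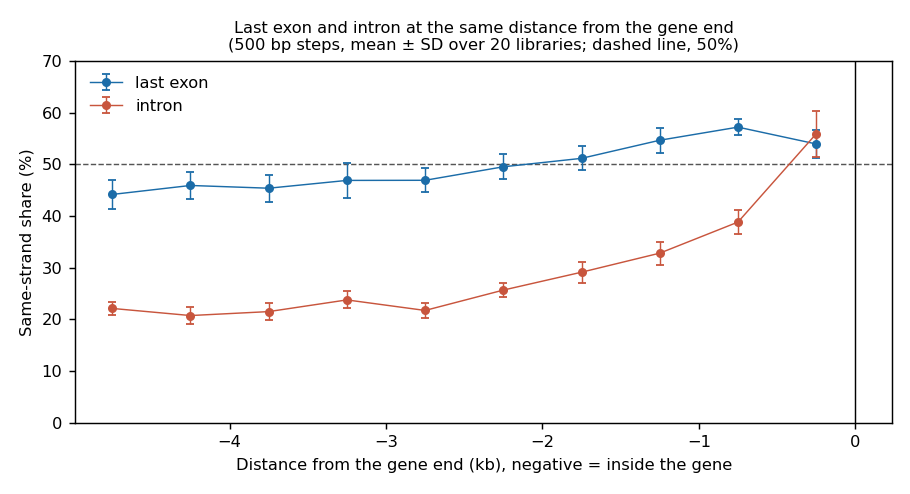
Same-strand share (%) in the last exon and in introns of the canonical transcript, in 500 bp steps before the gene end (kb), as mean and SD over 20 libraries; the dashed line marks 50%. The last exon lies above introns in each step but the last, where the values are 53.9% and 55.9%.

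The climb toward 50% began at different distances in members with short and long last exons. Members were split into 3 groups by that length. With last exons of up to 1336 bp (1298 members) the share was 29.9% ± 2.14 between 2.0 and 1.5 kb before the end, 36.5% ± 2.28 in the next step and 50.8% ± 1.09 between 1.0 and 0.5 kb. With last exons of 1337 to 3067 bp (1298 members) the same steps stood at 47.9% ± 3.48, 55.2% ± 2.92 and 58.0% ± 2.41. With last exons of 3071 bp and more (1296 members) they stood at 50.1% ± 2.36, 53.6% ± 2.27 and 55.6% ± 1.61. The 50.1% joins 48.2% with hyPBase and 52.1% with hyPBase-centrip, and with hyPBase the middle and the longest group both first passed 50% between 1.5 and 1.0 kb before the end (52.9% and 51.6%). At 5.0 to 4.5 kb before the end the shares were 26.4%, 19.6% and 34.4%, so only the group with the longest exons was above 30% there. These values are descriptions, and the members with long and short exons were not matched for anything else.

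Closer to the end, in 100 bp steps, the share was 57.3% ± 1.90 at 700 to 600 bp before it, 58.2% ± 2.58 at 600 to 500 bp and 57.7% ± 3.60 at 300 to 200 bp. It fell to 55.4% ± 5.03 at 200 to 100 bp, 43.6% ± 3.85 in the last 100 bp and 40.9% ± 3.03 in the first 100 bp past the end. The fall thus lay within the last 200 bp of the annotated gene, where the spread between libraries was also largest.

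The size and direction of this change depended on how many reads an insertion had. In the last 0.5 kb, 44.3% of same-strand insertions rested on 1 read against 37.3% of opposite-strand insertions, a difference of 6.94 ± 2.43 percentage points in 20 of 20 libraries. In the first 0.5 kb past the end the order was reversed, with 34.5% against 39.2% and the lower value on the same strand in 19 of 20 libraries (exact sign-flip permutation p = 0.00586 with hyPBase and 0.00195 with hyPBase-centrip). Same-strand insertions had 2.68 reads each before the end and 3.43 past it, and opposite-strand insertions 3.25 and 2.81. Over the first 0.5 kb past the end minus the last 0.5 kb, the share differed by -12.9 ± 3.95 percentage points with all insertions, by -7.88 with at least 2 reads per insertion and by 4.82 with at least 5 reads, so its direction turned (same exact test, p = 0.580 with hyPBase and 0.00391 with hyPBase-centrip). In hyPBase-centrip replicate 3 the difference was -0.91, against -16.6 to -8.98 in the other libraries of that helper, and without that library the mean was -13.5. A comparison that leaves out the 0.5 kb on either side did not turn. The share from +0.5 to +1 kb minus that from -1 to -0.5 kb was -13.1 ± 1.26 percentage points, below 0 in 20 of 20 libraries (exact sign-flip permutation p = 0.00195 for each helper), and the difference was -13.9 with at least 2 reads and -13.6 with at least 5.

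**Figure D4:**
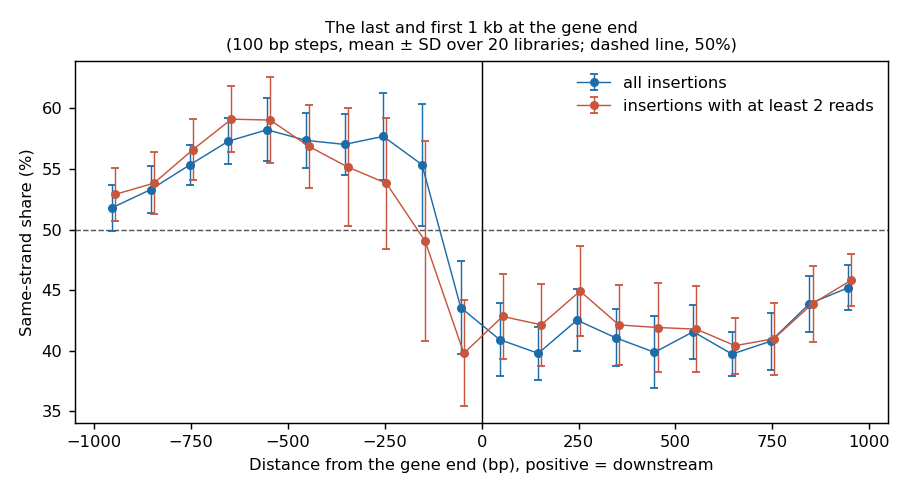
Same-strand share (%) in 100 bp steps over the last and the first 1 kb at the gene end (bp), for all insertions and for those with at least 2 reads, as mean and SD over 20 libraries; the dashed line marks 50%. Both curves lie above 50% from -1000 to -200 bp and below it past the end, and with at least 2 reads the fall begins earlier, at 49.0% between -200 and -100 bp.

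The polyadenylation signal gives the end a second coordinate. AATAAA was searched on the strand of the gene in the last 50 bp and was found in 2870 members (64.0%). On the other strand of the same windows it was found in 7.99%. In 29 other windows of 50 bp, 1 at the end of each 500 bp step, between 2.92% and 4.39% of members held it on the strand of the gene. The variant ATTAAA, which contains a TTAA and so can itself take an insertion, was found in 902 members (20.1%, against 2.12% to 2.99% elsewhere). Of the 4483 members, 232 held both and 943 neither. The first base of the AATAAA lay a median of 24 bp before the end.

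Aligned on that base, the share was 60.7% ± 2.92 at 300 to 200 bp before it, 57.1% ± 5.22 at 200 to 100 bp, 52.0% ± 6.98 in the 100 bp before it and 38.5% ± 2.04 in the 100 bp from it on. Over 200 bp on either side, the hyPBase libraries ran from 50.1% to 65.4% before the signal (median 58.0%) and from 38.7% to 45.9% after it (median 41.2%), and they did not overlap. The hyPBase-centrip libraries ran from 41.5% to 58.4% and from 38.7% to 45.0%, and overlapped. The difference was -13.0 ± 7.18 percentage points, below 0 in 19 of 20 libraries (exact sign-flip permutation test over 10 libraries, adjusted p = 0.00326 with hyPBase and 0.00558 with hyPBase-centrip). It was -3.25 and did not pass with at least 2 reads per insertion (p = 0.0645 and 0.570 in the same exact test), and 14.7 with at least 5 reads (p = 0.0957 and 0.00195), so the call was made only with insertions of 1 read included.

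Members with the signal and members with neither hexamer were described side by side. In the last 0.5 kb the share was 55.9% ± 2.73 with AATAAA, 50.1% ± 2.88 with ATTAAA but no AATAAA (670 members) and 48.8% ± 2.43 with neither. In the first 0.5 kb past the end it was 40.8% ± 1.87, 37.9% ± 2.31 and 43.5% ± 2.47. From +5 to +10 kb it was 47.8% ± 0.36, 48.9% ± 0.75 and 49.9% ± 0.58. In 200 bp windows at the end, members with neither hexamer changed by -1.76 ± 6.91 percentage points, which did not pass with hyPBase (adjusted exact permutation p = 0.0803) or hyPBase-centrip (adjusted p = 0.555). Members with AATAAA changed by -10.3 ± 6.76 (adjusted exact permutation p = 0.00326 and 0.00977). Both values count all insertions. In the same members with AATAAA, the contrast aligned on that signal did not pass with at least 2 reads per insertion. Whether these classes differ was not tested. TTAA sites inside an ATTAAA of the last 50 bp were used at 1.64 ± 0.15 times the autosomal mean with a share of 39.8% ± 3.36, and the other TTAA sites there at 1.58 ± 0.11 times with a share of 36.9% ± 3.24.

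The downstream flank was set beside the upstream flank in the 1847 members with no other gene within 10 kb on either side. The share over 10 kb downstream was 46.4% ± 0.26, and over 10 kb upstream of the start it was 43.4% ± 0.59, measured on the strand of the same gene. Across libraries the downstream values ran from 45.9% to 46.9% and the upstream values from 41.8% to 44.2%, and they did not overlap. The difference of 3.01 ± 0.63 percentage points was above 0 in 20 of 20 libraries (exact sign-flip permutation p = 0.00195 for each helper). It was 0.953 with each position and orientation counted once per library and 1.49 with each member weighted equally, and it passed under both.

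Members differed widely in how densely their bodies were hit, and were split into 4 groups of 1120 or 1121 by insertions per TTAA site from the start to 5 kb before the end. The least dense group had a median of 0.818 insertions per site and the densest 7.66, over 20 libraries. Density at the end followed that of the body. From 0 to +2 kb it was 0.465 ± 0.018, 1.19 ± 0.033, 1.60 ± 0.031 and 2.97 ± 0.050 times the autosomal mean from the least to the most dense group. The opposite-strand excess past the end was smallest in the least dense group. Over 0 to +10 kb the share was 48.9% ± 0.81, 47.3% ± 0.40, 46.0% ± 0.34 and 46.4% ± 0.31, and the densest group minus the least dense was -2.43 ± 0.89 percentage points, below 0 in 20 of 20 libraries (exact sign-flip permutation p = 0.00195 for each helper). From +5 to +10 kb the least dense group was at 49.8% ± 1.23, with 13 of 20 libraries below 50%. The groups also differed in gene length, with medians from 72926 bp in the least dense to 46037 bp in the densest, and the part of length in the result was not tested. By length alone, the share over 0 to +10 kb was 47.3% ± 0.36 for members of 10 to 30 kb, 46.4% ± 0.33 for those of 30 to 100 kb and 46.5% ± 0.37 for longer ones.

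To follow the excess further, the 1072 members with no other gene within 50 kb downstream were measured in 2.5 kb steps. The share was 45.7% ± 0.89 in the first 2.5 kb, 47.6% ± 0.57 in the next and between 47.9% and 49.0% in each step from there to +17.5 kb. All 7 steps up to +17.5 kb were below 50% with both helpers. From 17.5 to 20 kb it was 49.7% ± 1.15, with 10 of 20 libraries below 50%, and the step did not pass. The hyPBase mean there was 49.2% (exact sign-flip permutation test, adjusted p = 0.0547) and the hyPBase-centrip mean 50.2% (adjusted p = 0.570). Beyond that the steps went both ways. The share was 52.1% ± 1.03 from 30 to 32.5 kb and 52.1% ± 0.94 from 42.5 to 45 kb, both above 50% in all 20 libraries, and 49.1% ± 0.83 from 35 to 37.5 kb. Density moved between 0.858 and 1.16 times the autosomal mean over the 50 kb, with no steady course. In these isolated genes the unbroken run of steps called below 50% with both helpers therefore ended 17.5 kb past the end. That distance depends on the step size and the threshold, since hyPBase was near the threshold in the next step. The steps beyond it that passed lay on both sides of 50%, and all libraries share the same sites.

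**Figure D5:**
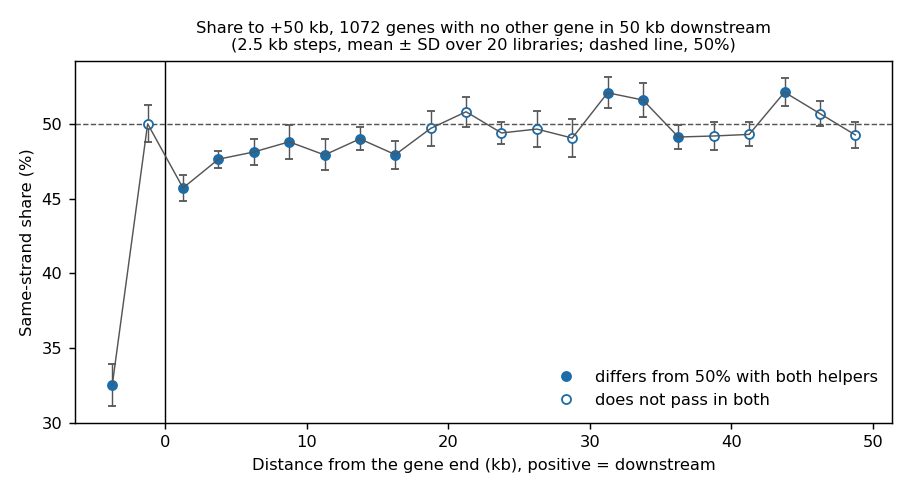
Same-strand share (%) to 50 kb past the gene end (kb) for 1072 genes with no other gene in that stretch, in 2.5 kb steps, as mean and SD over 20 libraries; filled points differ from 50% with both helpers, and the dashed line marks 50%. All 7 filled points from 0 to +17.5 kb lie below 50%, and the filled points beyond lie on either side of it.

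The helpers were compared over the same windows. In the last 5 kb the hyPBase libraries were at 43.3% ± 0.32 and the hyPBase-centrip libraries at 44.5% ± 0.36, a difference of 1.18 percentage points (two-sided permutation test with 100000 resamples, adjusted p = 0.00012). The gene bodies differed in the same direction, at 32.9% ± 0.48 and 34.2% ± 0.24 (permutation p = 3e-05). Past the end no window passed the test. The differences were 0.21 percentage points from 0 to +2 kb, -0.030 from +2 to +5 kb and 0.23 from +5 to +10 kb (adjusted permutation p = 0.595, 0.871 and 0.179). Of 30 steps, 8 differed at an adjusted p under 0.05, 7 of them before the end, and 7 were higher with hyPBase-centrip. Between 1.5 and 1.0 kb before the end the share was 48.4% ± 0.88 with hyPBase and 52.0% ± 1.08 with hyPBase-centrip, so that the means lay on different sides of 50%. Densities differed by little, at 1.36 and 1.38 times the autosomal mean in the last 5 kb (adjusted permutation p = 0.0186) and 1.49 and 1.52 from +2 to +5 kb (adjusted p = 0.0225).

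Single genes were then tested for orientation with edgeR's quasi-likelihood test on insertion counts per gene, orientation and library, fitted over all genes of at least 10 kb with at least 40 insertions in the window. Fold changes are log2 of same-strand over opposite-strand counts. From 0 to +5 kb, 3038 of the 4483 members had enough insertions. Of these, 1104 (36.3%) had an opposite-strand excess at an adjusted p under 0.05 and 525 (17.3%) a same-strand excess. Among all 9743 genes tested the calls were 36% and 25.5%, so the members' share was near the background for the opposite strand and below it for the same strand. In the last 5 kb, 1191 of 3055 members tested had an opposite-strand excess and 468 a same-strand excess (39% and 15.3%, against 38.5% and 20.8% of all genes). From +5 to +10 kb the counts were 869 and 694 of 2925 (29.7% and 23.7%, against 30.4% and 33.7%). The median log2 difference of the members was -0.34, -0.28 and -0.06 in the 3 windows in the order along the gene, against -0.26, -0.18 and 0.06 over all genes. Genes outside the members can have other genes in the same window. With TMM scaling the members' calls from 0 to +5 kb were 926 and 658. Calls over all genes were not split by orientation under TMM, so the comparison with the background holds only without it. A called gene shows that the libraries used its sites in the same unequal way.

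The 5 members with the smallest adjusted p for an opposite-strand excess were AK4, TSC22D2, AKR1E2, LSM3 and SGMS1. This order follows insertion counts as well as the size of the difference. Past AK4, the gene of a mitochondrial adenylate kinase (chr1:65147549-65232145, plus strand), the hyPBase libraries held 13 to 28 same-strand insertions (median 20) and 44 to 76 opposite ones (median 63.5). The hyPBase-centrip libraries held 12 to 24 and 39 to 75. Every library had more opposite-strand insertions and the ranges did not overlap, for a log2 difference of -1.70 ± 0.073 (SE, edgeR adjusted p = 2.51e-90). In its last 5 kb AK4 held 1966 same-strand and 1564 opposite insertions, and from +5 to +10 kb 394 and 392. Where within these windows the excess begins and ends was not measured.

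Past SGMS1, which encodes a sphingomyelin synthase (chr10:50305586-50625163, minus strand), libraries held 0 to 3 same-strand insertions with either helper and 8 to 28 opposite ones. The log2 difference was -3.90 ± 0.19 (SE, edgeR adjusted p = 1.58e-72), and from +5 to +10 kb the order was turned, with 38 same-strand and 14 opposite insertions. LSM3 encodes a subunit of the LSm ring that binds U6 RNA and takes part in mRNA decay. It held 83 same-strand and 608 opposite insertions past its end, of which a TTAA 2941 bp away gave 43.7%, and 58 and 331 without that site. TSC22D2, a leucine zipper gene, held 358 and 1183, and AKR1E2, whose end site is printed above, 178 and 825. In all 5 genes each of the 20 libraries had more opposite-strand insertions. Leaving out the most used site of each left shares between 6.3% at SGMS1 and 25.4% at AK4.

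The 5 with the smallest adjusted p for a same-strand excess, again an order that also follows counts, were BCAS1, HGD, CDKN2C, GLRA3 and BRAP. Past BCAS1, a gene of myelinating cells (chr20:53936777-54070594, minus strand), the hyPBase libraries held 52 to 125 same-strand insertions (median 100) and 4 to 17 opposite ones (median 10.5). The hyPBase-centrip libraries held 53 to 99 and 6 to 19. Its log2 difference was 3.03 ± 0.076 (SE, edgeR adjusted p = 6.27e-195), and without its most used site the share was still 88.9%. The excess reached on, with 120 same-strand and 43 opposite insertions from +5 to +10 kb. HGD, which encodes homogentisate dioxygenase of tyrosine breakdown, held 467 same-strand and 66 opposite insertions, 59.3% of them at 1 site 4507 bp past the end. BRAP, a ubiquitin ligase gene, held 351 and 69, with 55.2% at 1 site.

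CDKN2C, the gene of a CDK4 and CDK6 inhibitor (chr1:50960745-50974634, plus strand), had the most insertions of the 10, with 2565 same-strand and 1654 opposite. Its log2 difference was 0.63 ± 0.040 (edgeR adjusted p = 2.15e-43), but with each position and orientation counted once per library it was 0.08 and did not pass, and the same alternative took BRAP to 0.48 without a call. In its last 5 kb CDKN2C ran the other way, with 1501 and 2588. GLRA3, which encodes a glycine receptor subunit, held 749 and 297, and from +5 to +10 kb 316 and 45.

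Among genes of blood regulation and of K562, 18 of 50 listed genes were members and 15 were tested from 0 to +5 kb. Of these, 4 had an opposite-strand excess, 3 a same-strand excess and 8 neither, with a median log2 difference of 0.00 against -0.28 over all members tested. Over all genes tested in this window, 36% had an opposite-strand and 25.5% a same-strand excess. TAL1 and LMO2 encode partners in an erythroid transcription factor complex. Past TAL1, libraries held 0 to 4 same-strand and 4 to 14 opposite insertions, 23 and 179 in all (log2 -2.83 ± 0.25, edgeR adjusted p = 7.87e-26), and from +5 to +10 kb the counts were 12 and 136. KLF3, a zinc finger repressor gene, held 9 and 191 (log2 -4.07 ± 0.30, edgeR adjusted p = 3.22e-37), with more opposite-strand insertions in 20 of 20 libraries. GFI1B, a repressor needed for red cell and platelet formation, held 206 and 355, of which 51.9% lay at 1 site.

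LMO2 held 231 and 350, with a call that was lost with each position and orientation counted once per library (log2 -0.15). The 3 with a same-strand excess were SOX6 (78 and 41), a regulator of globin switching, ERG (44 and 21), an ETS factor gene, and HBS1L (183 and 137), a ribosome rescue gene, whose call was also lost that way. ETV6, another ETS factor gene, held 44 and 25 and did not pass (edgeR adjusted p = 0.0582), though it did with TMM scaling and without hyPBase-centrip replicate 3 (0.0219 and 0.0310). In the last 5 kb, 8 of 15 listed genes tested had an opposite-strand excess and 0 a same-strand excess (edgeR, 7 not called), against 38.5% and 20.8% of all genes tested. Among the 8 was SOX6 with 956 same-strand and 1693 opposite insertions.

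Of 36 listed genes of 3′ end processing and transcription termination, 10 were members and 8 were tested from 0 to +5 kb, with a median log2 difference of -0.49. An opposite-strand excess was called in 3 and a same-strand excess in 2, against 36% and 25.5% of all genes tested. CPSF6, a subunit of cleavage factor I, held 56 same-strand and 211 opposite insertions (log2 -1.87 ± 0.20, edgeR adjusted p = 2.09e-19). WDR33, a subunit of the complex that recognises AAUAAA, held 27 and 98, and PAPOLA, the poly(A) polymerase, 46 and 83. RBBP6, an activator of cleavage, held 56 and 25 and INTS9, an Integrator subunit, 38 and 15, both a same-strand excess. PAPOLG and CPSF2 did not pass (edgeR adjusted p = 0.142 and 0.265). WDR33 turned further out, with 98 same-strand and 9 opposite insertions from +5 to +10 kb.

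Of 40 listed neuronal genes, 23 were members, and 11 were tested from 0 to +5 kb, with a median log2 difference of -0.10. An opposite-strand excess was called in 4 and a same-strand excess in 1, against 36% and 25.5% of all genes tested. DLG2, a synaptic scaffold gene, held 13 same-strand and 59 opposite insertions (log2 -1.98 ± 0.39, edgeR adjusted p = 1.15e-06). SEMA3D, a guidance factor gene, held 7 and 35, CNTNAP2, an adhesion gene, 26 and 52, and GRIN2B, an NMDA receptor subunit gene, 93 and 134. The call of CNTNAP2 was lost with each position and orientation counted once per library, and that of GRIN2B with TMM scaling. KCNQ5, a potassium channel gene, held 40 and 11, a same-strand excess. GRIN2A, CDH18 and SCN2A did not pass (edgeR adjusted p = 0.0501, 0.427 and 0.471), though GRIN2A did with TMM scaling (0.0206). In the last 5 kb, 1 of 8 tested was called, KCNQ5 with 68 same-strand and 27 opposite insertions, and 0 had an opposite-strand excess by edgeR, against 20.8% and 38.5% of all genes tested. Counts past these genes were low, at medians of 0 to 6 per library and orientation for the 8 named.

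The recorded orientation was itself set against sequence. TTAA sites with a run of at least 10 A within 500 bp in 1 direction only were taken over chromosomes 1 to 22, and the orientation that reads toward the run as A was counted. It made up 55.0% ± 1.17 of 7403503 insertions (SD, n = 20), with 20 of 20 libraries above 50% (exact sign-flip permutation p = 0.00195 for each helper). Reads per insertion also went with orientation. From 0 to +2 kb same-strand insertions had 7.22% ± 2.56 more reads than opposite-strand ones in 20 of 20 libraries, and from +2 to +5 kb 3.52% ± 2.28 fewer in 19 of 20. The part of A-rich sequence and of reads per insertion in the shares past the end was not tested.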

How the data were processed

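Insertions of 20 K562 libraries, 10 per helper, were analysed. The deposited files list 1 insertion per line with its read count, orientation and barcode. Per the submitters' processing notes, the authors used Trimmomatic, BWA and SAMtools with hg38 (versions and filters not given in the sources used here). A further 2 libraries, whose title and description name different helpers, were not used. Gene ends came from GENCODE 44.

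Same-strand share and insertions per TTAA site were computed per library. Sign-flip permutation tests over the 10 libraries of each helper were exact and two-sided, Benjamini-Hochberg adjusted over windows or steps, and 0.00195 is the smallest p they allow. Helpers were compared with 100000 permutations. A result was called where both helpers passed 0.05. Single genes were tested with edgeR 4.0.16 in R 4.3.3 on insertion counts in 40 columns, with at least 40 insertions. Alternatives used DESeq2 1.42.0, TMM factors, no filter, at least 2 or 5 reads, collapsed barcodes, other gene ends, neighbours and weights, and libraries left out. Python 3.11.15, numpy 2.4.6, pandas 2.3.3 and scipy 1.17.1 were used, and scripts were tested on simulated data.

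Named genes were the 5 members with the smallest adjusted p in each direction from 0 to +5 kb and up to 8 tested members of each of 3 gene lists. Some items that this rule names are not reported here. The members and lists were chosen with earlier results of these data known. The 100 bp steps, exon classes, hexamers and the 50 kb extension were added after the profile had been seen. Libraries held 1509672 to 3596762 insertions.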

Additional observations from a re-analysis of the deposited data

Results flagged for a closer look

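A library standing apart from its group was found in 3 of 28 sets of 10 values, where chance gives about 5%. All 3 were hyPBase-centrip replicate 3. Its same-strand share from 0 to +2 kb was 44.4%, against 42.2% to 43.4% in the other libraries of that helper. Its relative density from +2 to +5 kb was 1.61, against 1.49 to 1.53. Its share in the first 0.5 kb past the end minus that in the last 0.5 kb was -0.91 percentage points, against -16.6 to -8.98.

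The helpers differed in 5 of 10 contrasts tested with 100000 permutations, given as hyPBase-centrip minus hyPBase in percentage points. The last exon minus introns beyond 1 kb from the end differed by 2.68 (24.7 with hyPBase and 27.3 with hyPBase-centrip, adjusted permutation p = 0.0003). The contrast of +5 to +10 kb with the last 5 kb differed by -0.956 (4.93 and 3.97, adjusted permutation p = 0.0012). The contrast of the first 0.5 kb past the end with the last 0.5 kb differed by 4.01 (adjusted permutation p = 0.0300), and that of 200 bp after AATAAA with 200 bp before it by 7.32 (adjusted permutation p = 0.0373). In members with AATAAA, the 200 bp past the end minus the 200 bp before it differed by 7.43 (-14.0 and -6.60, adjusted permutation p = 0.0300). Reads per insertion ran from 3.01 to 5.39 over the hyPBase libraries and from 2.23 to 3.89 over the hyPBase-centrip libraries. The contrasts of the 0.5 kb steps and across AATAAA changed with the read minimum, as given above. The part of reads per insertion in these helper differences was not tested.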

How the results depend on the processing

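Of 203 values recomputed across members under the alternatives, 191 kept their direction and their side of the threshold. With at least 5 reads per insertion, 10 steps past the end were below 50% in place of 17, the contrast across the end was 4.82 in place of -12.9, and that across AATAAA was 14.7 in place of -13.0. With at least 2 reads the latter was -3.25. These read minimums at the end and at AATAAA were chosen after seeing the data, and the cause was not tested. The helper difference from +2 to +5 kb, -0.030, did not pass and changed sign to 0.174 with barcodes collapsed, 0.206 at the canonical end, 0.175 with a 20 kb gap, 0.0744 without the 1% of members with most insertions, 0.288 with members weighted equally, and 0.0338 to 0.0836 without hyPBase replicate 8 or hyPBase-centrip replicate 3. That from +5 to +10 kb, 0.227, became -0.398 with equal weights. Only these 2 libraries were left out in turn.

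Same-numbered libraries of the helpers had correlated deviations from -0.241 to 0.334, over 0.1 in 4 of 10 pairs, and 2 of 10 correlated best with their own number, so the numbers were not taken as pairing. With the number as a replicate block the difference in the last 5 kb was 1.18 (exact paired sign-flip test, adjusted p = 0.00781), and no call changed. For single genes, member calls from 0 to +5 kb were 1629, and 1489 with DESeq2, 1584 with TMM (926 opposite and 658 same), 1939 without the filter and 1308 with barcodes collapsed. In the last 5 kb TMM gave 988 and 608 in place of 1191 and 468. Under these alternatives calls over all genes were not split by orientation, so members were not compared with that background. Of 169 values for 34 named genes, 158 kept their call and 0 changed direction. Counts per gene limited the gene test to members with 40 insertions.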
